A study of Mus musculus with 9 samples.

Results

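The genes described here are 34 genes of glycolysis and of the response to low oxygen, in stomach glands of mice that carry an activated Notch transgene with or without the loss of 1 copy of the chromatin remodeler gene Arid1a. They were chosen by name as glycolytic enzymes, glucose and lactate transporters and targets of the hypoxia-inducible factor (HIF), and all 34 were found among the 18423 genes of the table. RNA was sequenced from glands of the stomach corpus in 9 libraries, 3 for each of 3 genotypes. WT mice were wild type. Ctrl mice carried Atp4bCre and Rosa26NICD. Arid1a_Het mice carried Atp4bCre, Rosa26NICD and Arid1aflox/+, so by genotype they differ from Ctrl by the floxed Arid1a allele and share both transgenes with it. NICD is the intracellular domain of a Notch receptor, which acts as the active form of the receptor. Atp4b encodes a subunit of the acid pump of parietal cells, so Cre driven by it acts in the parietal lineage, and the floxed allele is removed only in cells that made Cre. Tumour-bearing corpus was sampled where there were tumours and the same region in normal stomachs. The ages of the mice are not given in the sources used here, nor whether each library came from a different animal, and p-values therefore measure the spread between libraries, which may be technical.

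Glycolysis splits glucose into pyruvate in the cytosol. Glucose enters through transporters such as Slc2a1, hexokinase traps it as a phosphate, phosphofructokinase commits it to breakdown, and lactate dehydrogenase can turn the pyruvate into lactate, which leaves through the monocarboxylate transporters. HIF is a transcription factor whose alpha subunit is marked for destruction by prolyl hydroxylases while oxygen is present. When oxygen falls the subunit persists and raises transcription of many glycolytic genes and of genes for vessel growth, pH control and mitophagy. HIF1A is controlled mostly as a protein, and its activity was not measured here. Parietal cells are rich in mitochondria, which supply the ATP for acid secretion.

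Hk2, Slc16a3, Ankrd37 and Bnip3 were the members with the largest called changes, so the promoters of these 4 are shown. Each line holds the 250 bases before the RefSeq start on the GRCm38.p6 build, read 5′ to 3′ on the strand of the gene. Capitals mark the core of the hypoxia response element, ACGTG or GCGTG on either strand, which reads CACGT or CACGC where it lies on the other strand; neighbouring matches may overlap. The windows are chr6:82774455-82774704 on the minus strand for Hk2, chr11:120948817-120949066 on the plus strand for Slc16a3, chr8:45999851-46000100 on the minus strand for Ankrd37 and chr7:138909507-138909756 on the minus strand for Bnip3.
Hk2: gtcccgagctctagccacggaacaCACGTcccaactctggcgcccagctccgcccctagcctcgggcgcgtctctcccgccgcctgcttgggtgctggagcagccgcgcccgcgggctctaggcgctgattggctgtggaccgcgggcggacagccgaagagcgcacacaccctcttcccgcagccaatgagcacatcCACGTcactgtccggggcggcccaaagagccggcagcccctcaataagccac
Slc16a3: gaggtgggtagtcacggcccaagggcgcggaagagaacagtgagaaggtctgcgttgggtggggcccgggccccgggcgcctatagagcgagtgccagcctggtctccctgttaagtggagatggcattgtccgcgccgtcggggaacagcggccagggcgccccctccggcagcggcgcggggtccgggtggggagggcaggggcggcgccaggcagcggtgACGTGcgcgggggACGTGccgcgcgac
Ankrd37: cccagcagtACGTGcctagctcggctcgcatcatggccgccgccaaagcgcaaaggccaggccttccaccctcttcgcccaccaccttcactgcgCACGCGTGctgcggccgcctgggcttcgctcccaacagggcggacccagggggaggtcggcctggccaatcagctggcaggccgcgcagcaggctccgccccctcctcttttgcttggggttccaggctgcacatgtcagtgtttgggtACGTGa
Bnip3: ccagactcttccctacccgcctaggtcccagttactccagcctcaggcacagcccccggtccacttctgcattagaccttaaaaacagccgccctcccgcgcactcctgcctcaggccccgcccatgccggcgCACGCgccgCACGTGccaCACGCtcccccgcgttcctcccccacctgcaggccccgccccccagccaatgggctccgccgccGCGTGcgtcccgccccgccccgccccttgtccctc
The window held 2 cores in Hk2, 2 in Slc16a3, 4 in Ankrd37 and 5 in Bnip3. Hk2, Slc16a3 and Ankrd37 were higher in Ctrl than in WT and Bnip3 was lower, so windows with cores were found with both directions. RefSeq windows were given for 32 of the 34 members, 46 windows in all, and 37 of these (80.4%) held a core, beside 56.1% of the windows of all tested genes and 38.6% of 32851 windows overall. The E-box CACGTG, which contains the core ACGTG, was in 6 of the 46 windows (13.0%), beside 8.45% of the windows of tested genes. A match describes the letters of the window and not a bound site.

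Levels are given in FPKM, which divides the fragments of a gene by its length in kilobases and by the size of the library. The libraries held 22654397 to 29478821 reads. Changes are differences of log2(FPKM + 1), which understates the change of genes at low levels, tested with limma over 11209 genes, and a gene is called where its Benjamini-Hochberg adjusted p is under 0.05. The median tested gene was higher by 0.24 in Ctrl than in WT and lower in Arid1a_Het than in Ctrl, at -0.16, and it was at 0.02 for Arid1a_Het against WT. Under median-ratio scaling these medians were 0.01, 0.03 and -0.01, so each called change of a member is also set against that median. Arid1a itself was 11.1 ± 2.94 FPKM in WT, 14.8 ± 1.44 in Ctrl and 7.26 ± 1.54 in Arid1a_Het (SD, n = 3). The exact two-sided permutation p was 0.1 for Arid1a_Het against Ctrl, the smallest that 3 against 3 libraries can give, and 0.2 for both other comparisons. Of the 11 parietal cell markers 7 were called lower in Ctrl than in WT (63.6%, beside 3.04% of all tested genes). Of 5 tested neutrophil markers (of 7 listed) 4 were called higher (80%, beside 7.01% of all tested genes). These 5 were under 1 FPKM in the WT libraries, except S100a9 in WT 2 (1.24 FPKM). They thus passed the filter of at least 1 FPKM in at least 3 libraries through the transgenic groups, in which they are high. In bulk tissue, fewer cells of a type and less RNA per cell cannot be told apart. Ctrl 1 and Arid1a_Het 3 held more RNA of exocrine pancreas markers than the other 7 libraries, at summed levels of 3971 and 1540 FPKM against 80.2 to 328.

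Of the 34 members, 32 passed the filter of at least 1 FPKM in at least 3 libraries. The 2 that did not were the enolases Eno1 and Eno2, which convert phosphoglycerate to phosphoenolpyruvate. Eno1 held 0 or 1 read per library and Eno2 3 to 15. Of the 50-base words of the annotated Eno1 transcripts, 49.5% also occur in other genes, chiefly Eno1b, which was at 3.16 to 11.2 FPKM. The level of Eno1 was not resolved, and the cause of its low read count was not tested. The same holds for Gapdh, an enzyme of the pathway outside the 34 genes, with 10 to 95 reads per library and 58.4% of its words shared with other genes. Among the tested members the shared part was 68.0% for Pgk1, 24.4% for Bnip3l, 20.99% for Ldhb and 20.7% for Bnip3. It was 18.6% for Gpi1, 18.4% for Pkm and 10.4% for Ldha. The levels of these genes are uncertain, by an amount that was not measured. For Hk2, Slc16a3, Ankrd37, Egln1, Pfkm and Hif1a the shared part was 0. Ankrd37 overlaps Ufsp2 and Lrp2bp, and Pfkm overlaps Senp1, on the opposite strand. Antisense or pseudogene loci lie opposite Hk2 (Gm17034), Hif1a (Gm15283) and Bnip3 (Gm45507 and Gm18258), among other members. The strand setting of the count is not given.

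**Figure D1:**
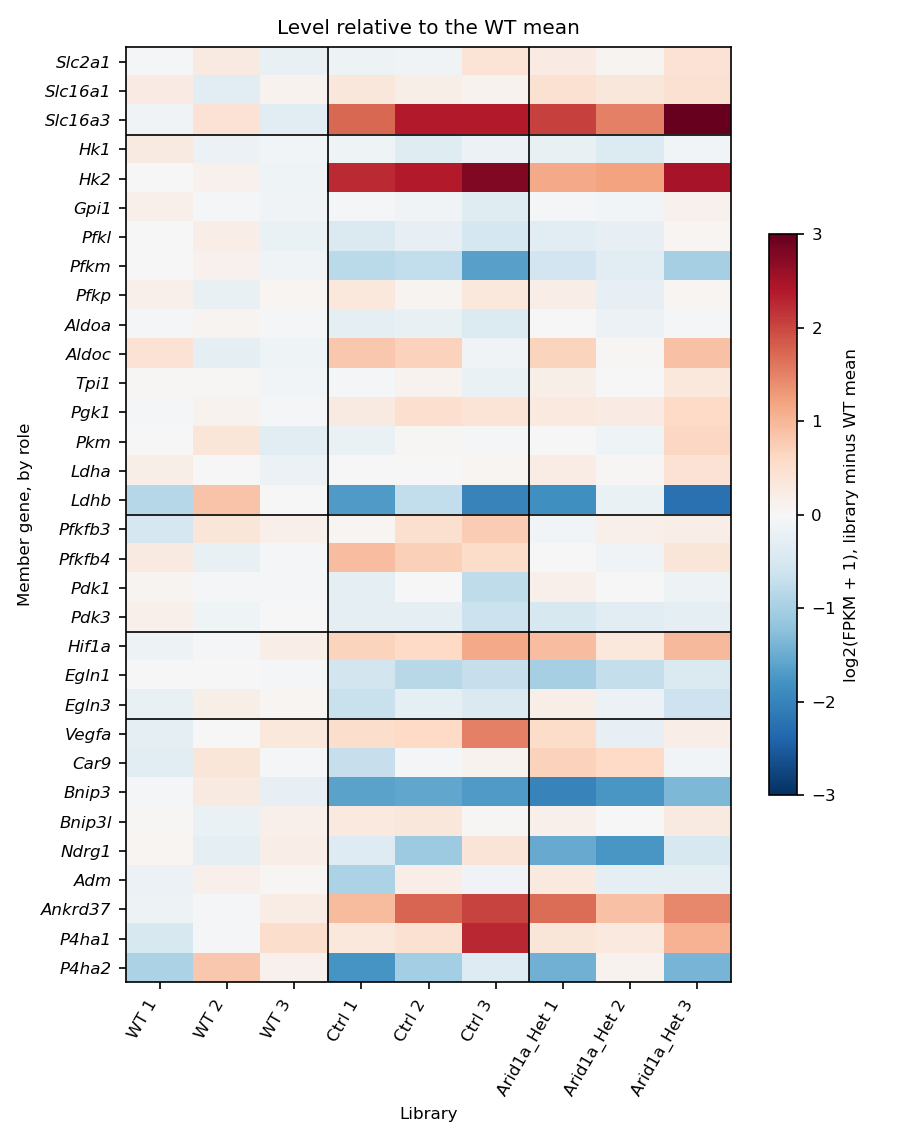
Level of the 32 tested genes (rows, ordered by role, with lines between roles) in each of the 9 libraries (columns), as log2(FPKM + 1) minus the mean of the 3 WT libraries; red is higher and blue is lower. Hk2, Slc16a3 and Ankrd37 are red and Bnip3 is blue in all 6 libraries with the transgenes, while most enzyme rows stay pale.

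The most abundant members were 4 glycolytic enzymes and Car9. Averaged over the 9 libraries, pyruvate kinase Pkm was at 385 FPKM, aldolase Aldoa at 254, lactate dehydrogenase Ldha at 214, carbonic anhydrase Car9 at 143 and triosephosphate isomerase Tpi1 at 126. Neighbours in this order overlapped in range over the libraries. The highest library exceeded the lowest by 1.96 times for Pkm, 1.43 for Aldoa and 1.55 for Ldha, whereas the same ratio was 8.75 for Hk2 and 31.3 for Slc16a3. Pkm, Aldoa and Ldha thus varied less between libraries than Hk2 and Slc16a3. The ratio did not follow the level throughout, being 8.92 for Ldhb (mean of 82.7 FPKM) and 1.49 for Bnip3l (12.4 FPKM).

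In Ctrl against WT, 3 of the 32 tested members were called higher (9.38%) and 3 lower (9.38%), beside 7.01% and 3.04% of all 11209 tested genes, or 18.8% beside 10.1% in either direction. Hk2, Slc16a3 and Ankrd37 rose. Bnip3, Egln1 and Pfkm fell. The median change over the tested members was -0.05, beside 0.24 over all tested genes. With median-ratio scaling the split was 3 higher and 5 lower, Hk1 and Pdk3 being added, while that of all genes went from 786 higher and 341 lower to 618 and 618. Libraries of Ctrl and WT with the same number deviated together, and a fit with the replicate number as a block called 7 members higher and 4 lower. Without single libraries 1 to 5 members were called higher and 1 to 3 lower; the count higher was 1 without Ctrl 2 and without Ctrl 3, and 5 without Arid1a_Het 2 and without Arid1a_Het 3, and the count lower was 1 without any 1 of the WT or Ctrl libraries.

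**Figure D2:**
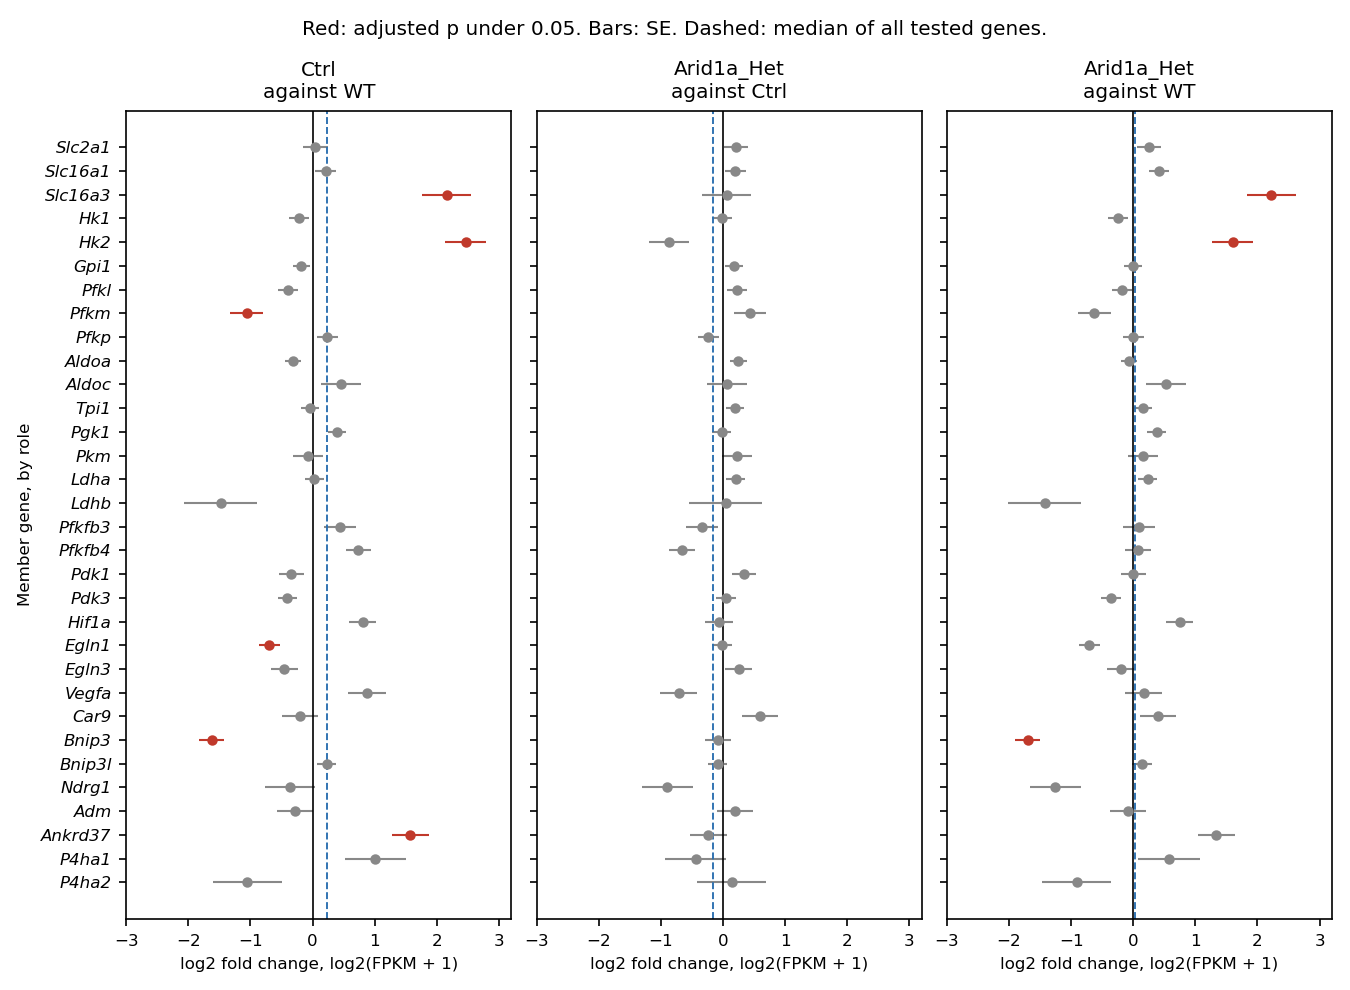
Change of each tested gene, as log2 fold change on the log2(FPKM + 1) scale with its SE, in the 3 comparisons; red marks an adjusted p under 0.05 and the dashed line is the median of all 11209 tested genes. Red points number 6 for Ctrl against WT, 0 for Arid1a_Het against Ctrl and 3 for Arid1a_Het against WT.

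Among the transporters, Slc16a3 encodes MCT4, which exports lactate from cells with active glycolysis. It was at 0.769, 1.56 and 0.486 FPKM in the 3 WT libraries, at 5.19, 8.83 and 8.88 in Ctrl and at 6.83, 4.35 and 15.2 in Arid1a_Het. All 6 libraries with the transgenes lay above all WT libraries, and the ranges of Ctrl and Arid1a_Het overlapped. The mean was 8.12 times the WT mean in Ctrl, a log2 change of 2.16 ± 0.39 (SE; adjusted p = 0.0140, limma), 1.92 above the median gene. Slc16a3 reached 1 FPKM in 1 of 3 WT libraries and so passed the filter through the transgenic groups, in which it is high. The call was lost without WT 3 (adjusted p = 0.0513), without Ctrl 2 (0.0507) and without Ctrl 3 (0.0677).

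The glucose transporter Slc2a1 (GLUT1) showed no such split. It was at 41.0, 52.2 and 36.8 FPKM in WT, at 38.3, 39.7 and 57.0 in Ctrl and at 51.1, 45.8 and 58.1 in Arid1a_Het. The ranges of the 3 groups overlapped, and the change from WT to Ctrl was 0.04 ± 0.20 (SE; adjusted p = 0.884, limma), with the opposite sign under median-ratio scaling and without WT 3 or Ctrl 3. Slc16a1 (MCT1), which moves lactate and other monocarboxylates in both directions, was at 35.8 to 63.4 FPKM and was not called in any comparison.

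Hexokinase phosphorylates glucose, the first step of its use, and the 2 members differed in pattern. Hk2, the inducible form, was at 5.54, 6.25 and 5.0 FPKM in WT, at 30.1, 33.4 and 43.8 in Ctrl and at 13.4, 14.1 and 35.3 in Arid1a_Het. Every library with the transgenes exceeded every WT library, and Arid1a_Het 3 stood among the Ctrl libraries while Arid1a_Het 1 and 2 lay below them. The Ctrl mean was 6.38 times the WT mean, a log2 change of 2.46 ± 0.33 (SE; adjusted p = 0.00410, limma), 2.23 above the median gene, and Hk2 was called higher in Ctrl than in WT in all 18 alternative settings. Hk1, the form made in most tissues, was at 62.1, 44.9 and 47.9 FPKM in WT, at 46.3, 39.7 and 45.2 in Ctrl and at 43.5, 38.1 and 47.9 in Arid1a_Het. Its ranges overlapped between all groups, and its change from WT to Ctrl was -0.22 ± 0.16 (SE; adjusted p = 0.336, limma), while with median-ratio scaling it was -0.48 (adjusted p = 0.0491). In FPKM, Hk1 was therefore above Hk2 in every library of the 3 groups, and the 2 were of similar level in Ctrl 3.

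Phosphofructokinase has 3 subunit genes. Pfkm, the muscle-type subunit, was at 20.8, 23.1 and 19.4 FPKM in WT, at 11.6, 12.2 and 6.08 in Ctrl and at 13.9, 16.7 and 10.1 in Arid1a_Het. All WT libraries lay above all others, and Ctrl 3 was the lowest. The Ctrl mean was 0.472 of the WT mean, a change of -1.06 ± 0.26 (SE; adjusted p = 0.0352, limma), -1.30 relative to the median gene. This call was lost in 8 of 18 settings, with adjusted p up to 0.106, among them the fits without each of the 6 WT and Ctrl libraries and the fit without a filter. Pfkl and Pfkp, the liver-type and platelet-type subunits, were at 36.3 to 60.3 and 12.3 to 18.6 FPKM and were not called.

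Lactate dehydrogenase interconverts pyruvate and lactate as a tetramer of A and B subunits. Ldha was at 226, 202 and 176 FPKM in WT, at 202, 201 and 210.4 in Ctrl and at 234, 206 and 273 in Arid1a_Het. Its groups overlapped, and the change from WT to Ctrl was 0.03 ± 0.16 (SE; adjusted p = 0.905, limma), with the opposite sign under median-ratio scaling and without WT 3. Ldhb was at 70.1, 232 and 125 FPKM in WT, at 38.4, 75.9 and 31.1 in Ctrl and at 34.7, 110.2 and 26.0 in Arid1a_Het. It was highest in library 2 of each group, and the ranges of Ctrl and WT overlapped through Ctrl 2. The change was -1.48 ± 0.59 (SE; adjusted p = 0.124, limma) from WT to Ctrl, and with the replicate block it was called (adjusted p = 0.00987). The other enzymes tested, namely Gpi1, Aldoa, Aldoc, Tpi1, Pgk1 and Pkm, were not called in any comparison; among the 13 tested enzymes 1 was called higher (Hk2) and 1 lower (Pfkm) in Ctrl against WT.

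**Figure D3:**
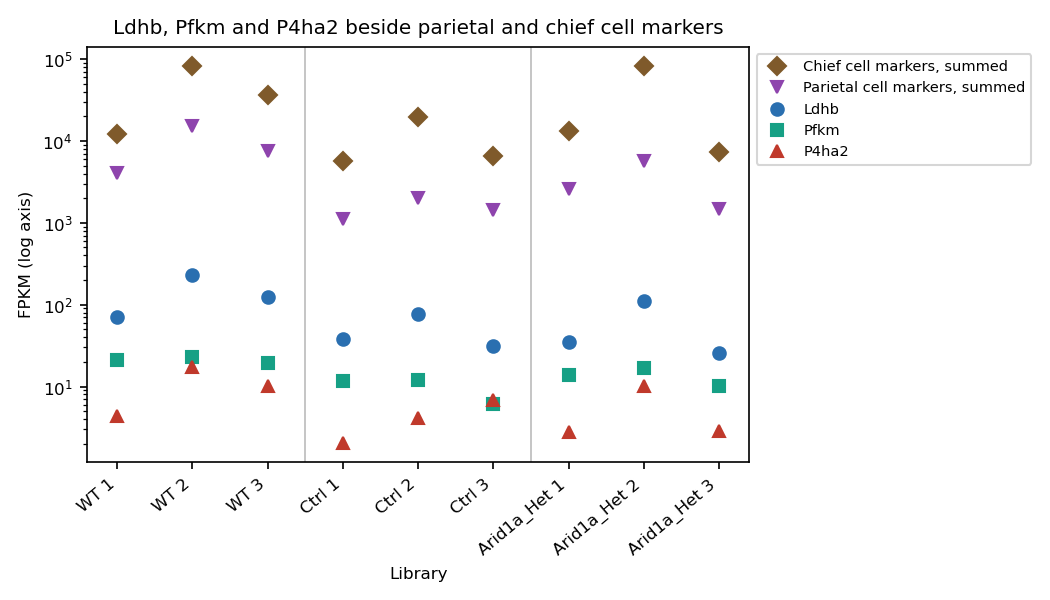
FPKM on a log axis of Ldhb, Pfkm and P4ha2 in each of the 9 libraries, beside the summed FPKM of 6 chief cell markers and 11 parietal cell markers. Ldhb, P4ha2 and both marker sums are high in WT 2 and Arid1a_Het 2, and Ldhb, at 232 FPKM, is highest in WT 2.

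Summed markers of parietal and chief cells were highest in the same libraries as Ldhb and Pfkm, but did not follow them throughout. The summed level of the 11 parietal cell markers, none of which was at 0 in all libraries, was 4071 to 15237 FPKM in WT, 1113 to 2001 in Ctrl and 1462 to 5767 in Arid1a_Het. That of 6 chief cell markers was 12079 to 82468, 5736 to 19466 and 7331 to 82695. Both sums were highest in library 2 of each group, as were Ldhb and Pfkm. Libraries 1 and 3 kept the order of the sums for Ldhb in WT and Arid1a_Het, and for Pfkm in Arid1a_Het only. In Ctrl both sums were higher in library 3 than in library 1, while Ldhb (31.1 and 38.4 FPKM) and Pfkm (6.08 and 11.6) were lower. In WT the same was true of Pfkm (19.4 and 20.8). In WT 2 the chief cell sum was mostly Pgc (76555 FPKM) and the parietal sum mostly Atp4a and Atp4b (7584 and 5304). These 3 genes were each highest in library 2 of every group, but not every listed marker was. Car2 was lowest of its group in WT 2 (793) and Arid1a_Het 2 (831), and Aqp4 in Arid1a_Het 2 (5.76). Gpx3 was highest of its group in WT 1, Ctrl 1 and Arid1a_Het 3. The part of these cell types in the levels of Ldhb and Pfkm was not tested.

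The regulatory kinases set the pace of glycolysis or restrain the oxidation of pyruvate in mitochondria. Pfkfb4, which makes and removes the activator fructose 2,6-bisphosphate, was at 1.53, 0.795 and 0.989 FPKM in WT, at 2.98, 2.41 and 2.07 in Ctrl and at 1.05, 0.935 and 1.66 in Arid1a_Het. The Ctrl libraries lay above all others. The change from WT to Ctrl was 0.73 ± 0.20 (SE; adjusted p = 0.0513, limma), which misses the threshold. It was called in 5 of the 17 settings in which Pfkfb4 was tested, among them the replicate block (adjusted p = 0.0363). At a minimum of 5 FPKM it was not tested. Pfkfb3, of the same enzyme family, was at 2.65 to 7.82 FPKM and was not called. The pyruvate dehydrogenase kinases Pdk1 and Pdk3 were at 7.35 to 14.8 and 6.31 to 11.7 FPKM and were not called, except that Pdk3 was lower in Ctrl than in WT with median-ratio scaling (-0.64, adjusted p = 0.0296).

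Hif1a, the oxygen-regulated subunit of HIF, was at 11.0, 11.9 and 14.4 FPKM in WT, at 20.1, 19.3 and 28.5 in Ctrl and at 24.5, 15.7 and 25.3 in Arid1a_Het. Each library with the transgenes was above all WT libraries. The change from WT to Ctrl was 0.80 ± 0.22 (SE; adjusted p = 0.0513, limma), so it was not called, and it was called in 5 of 18 settings, among them the replicate block (adjusted p = 0.0147). Egln1 (PHD2) is the main prolyl hydroxylase that marks HIF alpha subunits in the presence of oxygen. It was at 18.9, 18.7 and 18.3 FPKM in WT, at 12.3, 10.0 and 11.1 in Ctrl and at 8.79, 11.0 and 13.7 in Arid1a_Het. The WT libraries were nearly level and above all 6 others. The change was -0.70 ± 0.17 (SE; adjusted p = 0.0327, limma) from WT to Ctrl, -0.93 relative to the median gene. The call was lost without any 1 of the 6 WT and Ctrl libraries and without the 2 pancreas-rich libraries (adjusted p = 0.0526), with adjusted p up to 0.10. Egln3 (PHD3), a second hydroxylase that HIF itself induces, was at 22.6 to 41.8 FPKM and was not called.

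Among the other HIF targets, Ankrd37, an ankyrin-repeat gene used as a marker of HIF activity, was at 0.951, 1.06 and 1.5 FPKM in WT, at 3.17, 6.23 and 7.81 in Ctrl and at 5.92, 3.0 and 4.88 in Arid1a_Het. All libraries with the transgenes lay above all WT libraries, and the level was low throughout, with 31 to 296 reads per library. Ankrd37 reached 1 FPKM in 2 of 3 WT libraries and, like Slc16a3, passed the filter through the transgenic groups, in which it is high. The Ctrl mean was 4.90 times the WT mean, a change of 1.58 ± 0.30 (SE; adjusted p = 0.0160, limma), 1.34 above the median gene. It was lost without WT 2 (adjusted p = 0.0526), without Ctrl 2 (0.0554) and without Ctrl 3 (0.0684). Bnip3, a mitochondrial outer membrane protein that acts in mitophagy and is known as a HIF target, went the other way. It was at 8.61, 10.8 and 7.30 FPKM in WT, at 2.22, 2.30 and 2.03 in Ctrl and at 1.45, 1.90 and 2.84 in Arid1a_Het. The 6 libraries with the transgenes were all under 3 FPKM. The Ctrl mean was 0.245 of the WT mean, a change of -1.62 ± 0.21 (SE; adjusted p = 0.00320, limma), -1.86 relative to the median gene, called in all 18 alternative settings. Its relative Bnip3l was at 9.73 to 14.5 FPKM and was not called.

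Vegfa, the main growth factor for vessels, was at 12.4, 15.3 and 19.3 FPKM in WT, at 22.7, 23.9 and 45.6 in Ctrl and at 23.1, 12.9 and 17.7 in Arid1a_Het. The Ctrl libraries were above the WT libraries, and Arid1a_Het overlapped both. The change from WT to Ctrl was 0.88 ± 0.30 (SE; adjusted p = 0.0896, limma), and the adjusted p with the replicate block was 0.0443. The collagen prolyl hydroxylase subunit P4ha1 was at 2.42 to 5.93 FPKM in WT and 4.97 to 21.9 in Ctrl, and it was called higher with the block only (1.01, adjusted p = 0.0321). P4ha2, Car9, Ndrg1 and Adm were not called in any comparison. Car9, a carbonic anhydrase that is induced by HIF in many tumours but is also made by normal gastric epithelium, was at 103 to 170.3 FPKM in WT, 80.6 to 141 in Ctrl and 123 to 212 in Arid1a_Het, and these ranges overlapped.

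**Figure D4:**
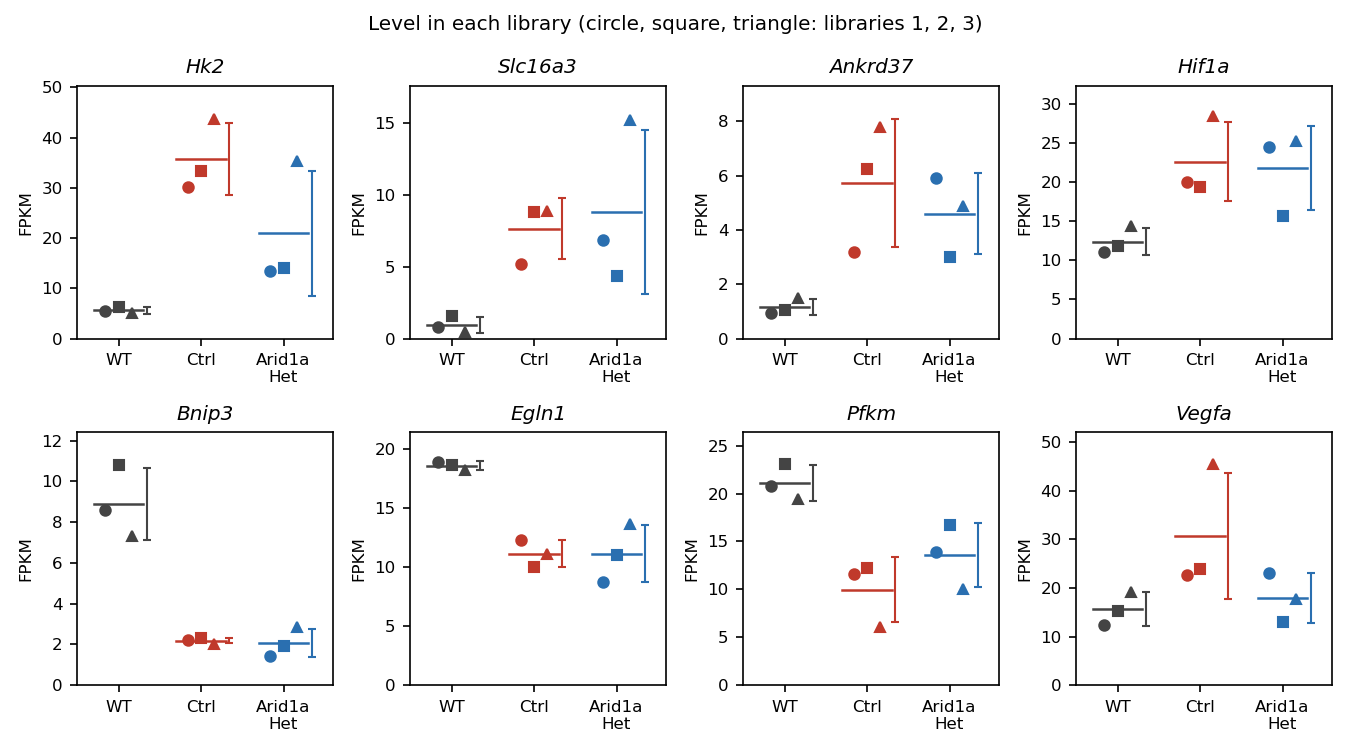
FPKM of 8 genes in each library (symbols), with the group mean as a line and the SD as a bar, n = 3. Hk2, Slc16a3, Ankrd37 and Hif1a are higher and Bnip3, Egln1 and Pfkm lower in every library with the transgenes than in any WT library; the Vegfa levels of Arid1a_Het overlap those of WT.

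Beside these calls, the ranges of Ctrl and WT did not overlap for 14 of the 32 tested members, beside 43.7% of all tested genes, a share near that of the table as a whole. Some markers of blood cells were higher where these members rose. The summed level of 7 neutrophil markers was 1.31 to 3.43 FPKM in WT, 42.8 to 98.9 in Ctrl, and 7.46, 10.3 and 107 in the 3 Arid1a_Het libraries. Of these markers Ly6g and Mpo were at 0 to 0.075 FPKM in every library, and S100a9 was the most abundant. Hk2, Slc16a3 and Hif1a were also highest in Arid1a_Het 3 within that group, while Ankrd37 was highest in Arid1a_Het 1 (5.92 FPKM). Within Ctrl the neutrophil sum was highest in Ctrl 2, while Hk2, Slc16a3, Ankrd37 and Hif1a were highest in Ctrl 3. The sum of 11 leukocyte markers was 7.11 to 29.1 FPKM in WT, 31.5 to 57.6 in Ctrl and 17.8 to 83.8 in Arid1a_Het, and that of 7 mast cell markers 30.9 to 69.3, 406 to 735 and 501 to 724. The mast cell sum was carried by Mcpt1, Mcpt2 and Mcpt4, the 3 called higher in Ctrl; Kit was called lower, and Cma1, Cpa3 and Tpsb2 overlapped between WT and Ctrl. The sum of 8 markers of squamous forestomach was 43.9 to 292, 238 to 732 and 194 to 696, mostly Sprr1a in Ctrl (219 to 647 FPKM). Lor and Sprr3 were highest in WT 1 (145 and 54.1 FPKM), and Krt5 and Krt14 in WT 1 (10.7 and 6.56) exceeded all Ctrl libraries. The part of these cells in the levels of Hk2, Slc16a3, Ankrd37 and Hif1a was not tested.

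In Arid1a_Het against Ctrl, the comparison that bears on Arid1a dosage, 0 of the 32 tested members were called by limma, beside 0.00892% of all tested genes (1 gene, lower). At an unadjusted p under 0.05 there were 0 members higher and 3 lower, beside 129 higher and 1176 lower of the 11209 tested genes, a share of lower genes near that of the members. Limma voom on whole reads also called 0 members. The 3 members of lowest p were Pfkfb4 at -0.66 ± 0.20 (SE; adjusted p = 0.395), Hk2 at -0.86 ± 0.33 (adjusted p = 0.404) and Vegfa at -0.71 ± 0.30 (adjusted p = 0.414). For Pfkfb4 all 3 Arid1a_Het libraries were below all Ctrl libraries, and for Hk2 and Vegfa the ranges overlapped. The ranges of the 2 groups were apart for 2 of 32 members, Pfkfb4 and Aldoa, beside 24.7% of all tested genes. Aldoa was at 246 to 279 FPKM in Arid1a_Het and 206 to 236 in Ctrl. A miss of the threshold with 3 libraries a group does not show that the levels were the same.

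In Arid1a_Het against WT, 3 of 32 members were called (9.38%, beside 2.75% of all tested genes), 2 higher (6.25% beside 2.06%) and 1 lower (3.12% beside 0.687%). Slc16a3 rose with a ratio of means of 9.36 and a log2 change of 2.22 ± 0.39 (SE; adjusted p = 0.0222, limma), 2.19 above the median gene. Hk2 rose with a ratio of 3.74 and a change of 1.60 ± 0.33 (adjusted p = 0.0360), 1.57 above it. Bnip3 fell with a ratio of 0.232 and a change of -1.70 ± 0.21 (adjusted p = 0.00347), -1.73 relative to the median gene, and it alone of these 3 was called in all 18 alternative settings. The Hk2 call was lost in 9 settings (adjusted p up to 0.132) and the Slc16a3 call in 6 (up to 0.0918). Both were lost with no filter, with only the 2 groups fitted, and without WT 1, WT 3 or Arid1a_Het 1; the Hk2 call was also lost without WT 2 and without each Ctrl library, and that of Slc16a3 with voom on whole reads.

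Ankrd37, Egln1 and Pfkm, called in Ctrl against WT, missed the threshold here with values in the same direction. They were 1.34 ± 0.30 for Ankrd37 (SE; adjusted p = 0.0511, limma; called in 6 of 18 settings), -0.71 ± 0.17 for Egln1 (adjusted p = 0.0597; called in 1) and -0.63 ± 0.26 for Pfkm (adjusted p = 0.254; called in 0). Both comparisons share the WT libraries, and none of these 3 members was called between Arid1a_Het and Ctrl. The ranges of Arid1a_Het and WT were apart for 11 of 32 members, beside 19.2% of all tested genes. Ndrg1, a stress gene induced by hypoxia, was one of these, at 10.8, 9.02 and 23.0 FPKM against 34.4, 26.8 and 38.1 in WT, and it was not called (-1.25 ± 0.40, adjusted p = 0.143).

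Other genes of the pathways were counted in 4 lists. In Ctrl against WT, 12 of 46 tested HIF target genes outside the 34 members (of 56 in the table) were called higher (26.1%, beside 7.01% of all tested genes) and 1 lower (2.17%, beside 3.04%). Among those of lowest p were Cxcr4, a chemokine receptor (2.57 ± 0.19, adjusted p = 2.08e-04), Plaur, the urokinase receptor (3.48 ± 0.45, 0.00361), and Ccng2, a cyclin tied to growth arrest (1.30 ± 0.26, 0.0177). The gene called lower was the mitochondrial adenylate kinase Ak4 (-1.62 ± 0.34, 0.0207), named after its value was seen. With median-ratio scaling 4 genes of the list were called lower, and 3 with the replicate block. The median change of the list was 0.20, beside 0.24 over all tested genes. Without single libraries the count higher went as low as 2 (without Ctrl 3), with 3 without Ctrl 2, 4 without Ctrl 1 and 5 without WT 2 or WT 3, where that of all tested genes was 217 to 326 in place of 786. Cxcr4 and Plaur are also made by leukocytes, whose marker sums are given above.

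Of 36 tested other genes of glucose metabolism (of 48 in the table), 2 were called higher (5.56%, beside 7.01% of all tested genes) and 5 lower (13.9%, beside 3.04%) in Ctrl against WT. The 4 of lowest p were Hkdc1, a hexokinase-like gene, which rose (2.25 ± 0.38, adjusted p = 0.0101), and the hexose transporters Slc2a10, Slc2a5 and Slc2a4, which fell (-1.34 ± 0.25, -1.14 ± 0.23 and -2.75 ± 0.61, with adjusted p of 0.0160, 0.0195 and 0.0245). Hkdc1 was at 0.101, 0.252 and 0.294 FPKM in WT, so it passed the filter through the transgenic groups, in which it is high. Slc2a5 was at 1.72, 2.94 and 2.10 FPKM in WT and under 1 FPKM in every library with the transgenes. It thus passed the filter through WT, in which it is high. Without single libraries the count higher was 1 without WT 2, WT 3, Ctrl 1, Ctrl 2 or Arid1a_Het 1 and 0 without Ctrl 3, and the count lower was 2 without Ctrl 1, 1 without WT 2 or WT 3 and 0 without Ctrl 2 or Ctrl 3. Of 30 genes for pyruvate entry and the citric acid cycle, 0 were called higher (0 also at an unadjusted p under 0.05 by limma, and 0 with voom) and 5 lower (16.7%, beside 3.04% of all tested genes). Ogdh fell most by p (-1.20 ± 0.16, adjusted p = 0.00456), and Cs and Fh1 were also among those of lowest p (-0.64 and -0.56, with adjusted p of 0.0190 and 0.0334). In this list 29 of 30 changes were negative, with a median of -0.44 beside 0.24 for all tested genes. The count lower was 12 with median-ratio scaling, 13 with the replicate block, 3 without Arid1a_Het 1 and 1 without WT 2, WT 3, any Ctrl library or the 2 pancreas-rich libraries. Over all tested genes the count lower moved as well, from 341 to 618 with that scaling, 669 with the block, 270 without Arid1a_Het 1, 166 without the pancreas-rich libraries and 43 to 107 without WT 2, WT 3 or a Ctrl library. The summed parietal markers were also lower in each Ctrl library than in any WT library, and their part in it was not tested.

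Of 20 tested HIF subunits and regulators, the ubiquitin ligase subunit Wsb1 was called higher (1.77 ± 0.41, adjusted p = 0.0290, limma) and the coactivator-binding gene Cited4 lower (-1.29 ± 0.34, 0.0428) in Ctrl against WT. This is 5% higher and 5% lower, beside 7.01% and 3.04% of all tested genes. In either direction it is 10% beside 10.1%, a share near that of the table as a whole. The calls of Wsb1 and Cited4 were both lost with no filter and without WT 2, WT 3, any Ctrl library or the 2 pancreas-rich libraries. The replicate block called 3 of the 20 genes higher, while it called 1804 of all tested genes higher in place of 786. In Arid1a_Het against WT, 5 of 46 other HIF targets were called higher (10.9%, beside 2.06% of all tested genes), led by Cxcr4 (2.41 ± 0.19, adjusted p = 5.26e-04) and Plaur (2.78 ± 0.45, 0.0148). Of the 36 glucose genes 1 was called higher, Hkdc1 (2.39 ± 0.38, 0.0133), a share of 2.78% near that of all tested genes. Of the 30 genes of pyruvate entry and the citric acid cycle 1 was called lower (3.33%, beside 0.687%), namely Ogdh (-0.83 ± 0.17, 0.0320). Without single libraries the 5 higher HIF targets became 10 without Arid1a_Het 2, 3 without Ctrl 1, 2 without WT 1, Ctrl 2, Ctrl 3 or Arid1a_Het 3, and 1 without WT 2, WT 3 or Arid1a_Het 1. Over all tested genes 231 were called higher, with 528 without Arid1a_Het 2 and 80 to 166 without any 1 of the other libraries. The Hkdc1 call was lost without WT 3 and without Arid1a_Het 1, and that of Ogdh in 12 of 18 settings. In Arid1a_Het against Ctrl 0 genes of the 4 lists were called by limma.

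The members also varied between libraries of 1 genotype. Ctrl 3 held the highest level of the 9 libraries for 7 tested members, namely Hk2, Pfkfb3, Hif1a, Vegfa, Ndrg1, Ankrd37 and P4ha1. It also held the lowest level for 7 others, namely Gpi1, Pfkl, Pfkm, Aldoa, Tpi1, Pdk1 and Pdk3. P4ha1 was at 21.9 FPKM there and at 4.97 and 5.55 in the other Ctrl libraries. Within Arid1a_Het, library 3 was the highest of the group for 20 of 32 members and library 2 the lowest for 20. Arid1a_Het 3 was the highest of all 9 for Slc2a1, Slc16a3, Aldoc, Tpi1, Pgk1, Pkm and Ldha. WT 2 was the highest for Pfkl, Pfkm, Aldoa, Ldhb, Bnip3 and P4ha2.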

How the data were processed

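Poly(A) RNA of mouse corpus glands was sequenced in 9 libraries (3 genotypes, 3 each) prepared with a stranded kit, per the labels' protocols. The authors deposited FPKM values of 18423 genes. The submitters' processing notes name STAR 2.4.2a and the builds GRCm38 and mm10; the counting tool, the strand setting and the treatment of reads with several matches are not given in the sources used here. The FPKM steps of low genes gave what a single read adds, and with it all 18423 genes came out as whole reads within 0.01, at 22654397 to 29478821 reads per library; on simulated reads 99.0% of genes were exact. These reads served for depth and for voom.

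Groups were the genotypes. Values on the log2(FPKM + 1) scale were tested with limma 3.58.1 (R 4.3.3, eBayes with an intensity trend), fitting the means of the 3 groups to the 9 libraries at once. Genes of at least 1 FPKM in at least 3 libraries were tested (11209; 7214 were not), and Benjamini-Hochberg adjustment ran over all of them. The 3 comparisons share libraries. The test was checked on simulated data. Arid1a had an exact permutation test. Members with a call in a comparison, the 3 of lowest p where none was called, and Hif1a, Slc2a1, Hk1, Hk2, Ldha, Ldhb and Vegfa got 9 values; up to 4 called genes of lowest p were named per other list, of which some are not reported here. The members and lists were chosen with earlier results of these data known.

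Same-numbered Ctrl and WT libraries deviated from their group means with correlations of 0.207, 0.336 and 0.138 across genes. No label gives a pairing, so the main fit did not pair libraries. A pairing by number, which rests on these correlations alone, entered only the replicate block, an alternative setting. Gene positions and shared 50-base words are from GENCODE M21 on GRCm38, promoters from RefSeq (GRCm38.p6). Python 3.11.15 with pandas 2.3.3, numpy 2.4.6, scipy 1.17.1 and matplotlib 3.10.9 was used. Alternatives were a pseudocount of 0.1, no filter, a minimum of 5 FPKM, median-ratio scaling, only the 2 groups compared, the replicate block, voom, no trend, each library left out, and no pancreas-rich libraries.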

Additional observations from a re-analysis of the deposited data

How the results depend on the processing

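In the 18 alternative settings, 2 of 32 member results followed changed direction, both uncalled, and of 9 called member results 3 were called in every setting (Hk2 in Ctrl against WT and Bnip3 in both comparisons with WT). In Ctrl against WT, the change of Slc2a1 became -0.22 with median-ratio scaling and ranged from -0.13 (without Ctrl replicate 3) to 0.18 with 1 library left out, being also negative without WT replicate 3 (-0.063), and that of Ldha became -0.24 with that scaling and ranged from -0.062 (without WT replicate 3) to 0.11. In Ctrl against WT, 3 members were called higher, and 7 with the replicate block; 3 were called lower, and 5 with median-ratio scaling. Leaving out 1 library gave 1 to 5 higher and 1 to 3 lower. In Arid1a_Het against WT, 2 members were called higher, but 0 with no filter, 0 with only the 2 groups fitted, 1 with voom and 4 with the replicate block (Slc16a3, Hk2, Ankrd37 and Hif1a); 1 was called lower, and 3 with the block (Bnip3, Ldhb and Ndrg1). Leaving out 1 library gave 0 to 4 higher and 1 to 2 lower. Over all tested genes the block gave 1804 higher and 669 lower in Ctrl against WT, beside 786 and 341. Same-numbered libraries deviated together in Ctrl and WT but not throughout in Arid1a_Het (correlations of -0.151, 0.467 and -0.020 with Ctrl, and 0.252, 0.563 and -0.279 with WT). In Ctrl against WT the block also called Ldhb lower (adjusted p = 0.00987, limma), and it changed no other call of a member. Ankrd37 in Arid1a_Het against WT was also called with a pseudocount of 0.1, median-ratio scaling (adjusted p = 0.0455), no trend, without Ctrl 1 and without Arid1a_Het 2. In Arid1a_Het against Ctrl, 0 members were called in any of these settings. With 3 libraries a group, and Ankrd37 at 31 to 296 reads and Slc16a3 at 60 to 2353 reads per library, small changes of low genes could not be resolved, and the cause of each lost call was not tested.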
